A study of Arabidopsis thaliana with 36 samples.

Results

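The genes described here are 8 Arabidopsis genes of auxin inactivation, chosen by name and not by their values: *GH3.1* (AT2G14960), *GH3.2* (AT4G37390, also *BRU6*), *GH3.3* (AT2G23170), *GH3.4* (AT1G59500), *GH3.5* (AT4G27260, also *WES1*), *GH3.6* (AT5G54510, also *DFL1*), *GH3.17* (AT1G28130) and *DAO1* (AT1G14130). They are 8 of the 33602 genes in the raw count table, and 7 of them are among the 20926 genes that passed the authors' filter. *GH3.4* had 0 counts in all 36 libraries, so its level stayed under the 3 counts taken as the floor, which lay between 0.128 and 0.317 CPM (counts scaled to a common library size) depending on the library. It enters no test, and the counts below are of the other 7.

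Seedlings 7 days old were sampled for RNA sequencing from the mutants *uvr8-6* and *hfr1-101* and from wild type (Col), the accession in which both mutants were made. The *uvr8-6* allele is a null of the UV-B photoreceptor UVR8, and *hfr1-101*, once called *rsf1*, carries a lesion in HFR1, a bHLH protein that restrains shade responses. Seedlings of each genotype received 3 h of low R:FR with UV-B (+FR+UVB), low R:FR (+FR) or UV-B (+UVB), or stayed in white light (WL). R:FR was 4.7 in WL and 0.05 under +FR by one label text and 0.08 by another, and the UV-B was 0.06 mW/cm2. Each of the 12 groups had 3 samples of 30 whole seedlings from separate plates, and each mutant is 1 allele.

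Auxin, mainly indole-3-acetic acid, drives much of the hypocotyl elongation of shaded seedlings. Phytochrome B loses activity under low R:FR, PIF transcription factors accumulate, and they raise YUCCA genes, whose enzymes make auxin. GH3 enzymes of this branch of the family join auxin to amino acids, and several of their genes are themselves switched on by auxin within minutes to hours. DAO1 is a dioxygenase of auxin inactivation by oxidation.

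Library totals ran between 9749710 and 21175260 counts on genes. The lowest was *hfr1-101* WL replicate 1, against 19013862 and 16721225 counts in replicates 2 and 3. Its distances from them were 47.9 and 30.7 (chi-square per gene). *UVR8* itself lay between 12.2 and 17 CPM in the 12 *uvr8-6* libraries, against 65.6 to 110 CPM in the other 24, so these labels hold. *HFR1* averaged 109 ± 10.9 CPM in *hfr1-101* under +FR, against 82 ± 5.72 CPM in wild type (SD, n = 3 each), so the level of its mRNA does not check that label. Green-tissue genes (*RBCS1A*, *LHCB1.1* and *LHCB1.3*) summed to between 22600 and 44400 CPM and root genes (*PYK10*, *EXPA7* and *COBL9*) to between 1610 and 4640 CPM, so both parts of the seedling were present in every library. Markers set 4 libraries apart: in *uvr8-6*, the seed storage genes *CRU3* and *SESA1* summed to 67.4 CPM in WL replicate 2, and root genes were at 1630 CPM in +FR+UVB replicate 3 and 1610 CPM in +FR replicate 3, each the lowest of its group. In *hfr1-101*, +UVB replicate 1 had the lowest green-tissue sum of the 36 libraries, at 22600 CPM against 32000 and 35300 CPM in the other replicates, and the largest distances from them (chi-square per gene of 55.7 and 57.6, against 3.95 to 47.9 for pairs of replicates without it). Fewer root cells and less RNA per root cell cannot be told apart in whole seedlings. The other libraries held at most 11.7 CPM of seed storage mRNA.

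All 8 genes lie on the nuclear chromosomes of TAIR10.1, whose sequence is that of the build to which the authors mapped, each with 3 merged exons and with 0 annotated genes overlapping them. The closest relatives by coding sequence are *GH3.2* and *GH3.4*, with 90.9% identical bases, then *GH3.5* and *GH3.6* with 84.1% and *GH3.2* and *GH3.3* with 81.4%. *GH3.17* is the most distant, with 63.4% to 64.9% identity to the others. The longest run shared by any pair was 65 bases, shorter than the 100-base reads, and 0 of the 100-base windows in the exons of any of the 8 genes occurred elsewhere in the genome. Reads of these genes could therefore be told apart when they matched the reference exactly.

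The 250 bases before the annotated start of 5 genes are shown. They are the 4 genes called lower under UV-B in wild type, and *GH3.6*, the close relative of *GH3.5*, which was not. TGTCTC, the auxin response element, is in 3 of the 4, and *GH3.1*, which fell as well, holds none of the sequences searched in this window, nor does *GH3.6*. Capitals mark every match, on either strand, of TGTCTC, of TGTCGG (another auxin response factor sequence), of CACGTG (the G-box) and of CACATG (an E-box that PIF proteins bind in vitro). The sequences are RefSeq's in TAIR10.1, written 5′ to 3′ on the gene's strand. They come from chr2:6453798-6454047 (minus strand) for *GH3.1*, chr4:17579368-17579617 (plus strand) for *GH3.2*, chr2:9866563-9866812 (minus) for *GH3.3*, chr4:13653329-13653578 (plus) for *GH3.5* and chr5:22133689-22133938 (minus) for *GH3.6*.
GH3.1: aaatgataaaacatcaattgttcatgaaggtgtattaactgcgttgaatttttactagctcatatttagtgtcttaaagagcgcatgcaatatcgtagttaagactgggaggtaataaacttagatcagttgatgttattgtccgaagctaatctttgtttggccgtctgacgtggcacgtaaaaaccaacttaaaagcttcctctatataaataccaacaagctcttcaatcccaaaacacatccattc
GH3.2: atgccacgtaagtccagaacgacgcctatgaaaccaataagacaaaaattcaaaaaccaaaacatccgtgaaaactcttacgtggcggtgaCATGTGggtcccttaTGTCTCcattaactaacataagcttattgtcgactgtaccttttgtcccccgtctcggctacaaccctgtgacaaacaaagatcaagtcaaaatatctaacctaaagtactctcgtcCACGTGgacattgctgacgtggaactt
GH3.3: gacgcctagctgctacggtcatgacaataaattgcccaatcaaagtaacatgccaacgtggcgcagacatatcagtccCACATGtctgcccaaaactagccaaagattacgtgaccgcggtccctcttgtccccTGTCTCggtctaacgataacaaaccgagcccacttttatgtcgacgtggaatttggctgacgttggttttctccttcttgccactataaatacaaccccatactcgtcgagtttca
GH3.5: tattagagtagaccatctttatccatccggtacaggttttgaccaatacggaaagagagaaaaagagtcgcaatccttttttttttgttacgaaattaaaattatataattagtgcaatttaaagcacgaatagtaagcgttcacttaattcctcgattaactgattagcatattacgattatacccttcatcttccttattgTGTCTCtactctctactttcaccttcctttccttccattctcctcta
GH3.6: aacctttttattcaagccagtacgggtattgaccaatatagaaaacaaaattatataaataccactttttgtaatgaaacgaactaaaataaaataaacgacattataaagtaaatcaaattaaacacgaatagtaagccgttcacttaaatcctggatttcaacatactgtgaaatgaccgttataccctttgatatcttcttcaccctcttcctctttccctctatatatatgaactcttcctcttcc
TGTCTC begins 144, 116 and 47 bases before the start of *GH3.2*, *GH3.3* and *GH3.5*. *GH3.2* also has CACATG 159 and CACGTG 27 bases before its start, and *GH3.3* has CACATG at 172. No matches overlapped. In windows of this size TGTCTC was in 3 of the 8 genes, against 10.7% of 20242 protein-coding genes tested, TGTCGG in 0 (4.59% of all), CACGTG in 1 (7.37%) and CACATG in 2 (11.3%). In 1000 bases TGTCTC was in 5 of 8 (*GH3.1* to *GH3.5*) against 39.9% of all genes, TGTCGG in 2 (15.3%), CACGTG in 1 (16%) and CACATG in 6 (38.3%). These are matches of letters, and none was tested as a site.

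Levels per length set the genes side by side, as CPM per kb of exon. In wild type under +FR+UVB *GH3.6* (31.9 ± 2.74) and *GH3.17* (24.8 ± 3.94) were highest. Under +FR *GH3.3* led at 63.9 ± 5.71, ahead of *GH3.5* at 38.5 ± 7.27 and *GH3.6* at 37.3 ± 2.87, whose ranges overlapped. In WL the order was another: *GH3.6* (17.5 ± 1.81) and *GH3.17* (17.3 ± 2.09) were highest, followed by *GH3.5* (8.36 ± 0.979), *DAO1* (5.65 ± 0.757), *GH3.2* (4.65 ± 1.05) and *GH3.3* (4.22 ± 2.34), with *GH3.1* at 0.604 ± 0.187 (SD, n = 3). The ranges of *GH3.6* and *GH3.17* overlapped, as did those of *DAO1*, *GH3.2* and *GH3.3*.

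**Figure D1:**
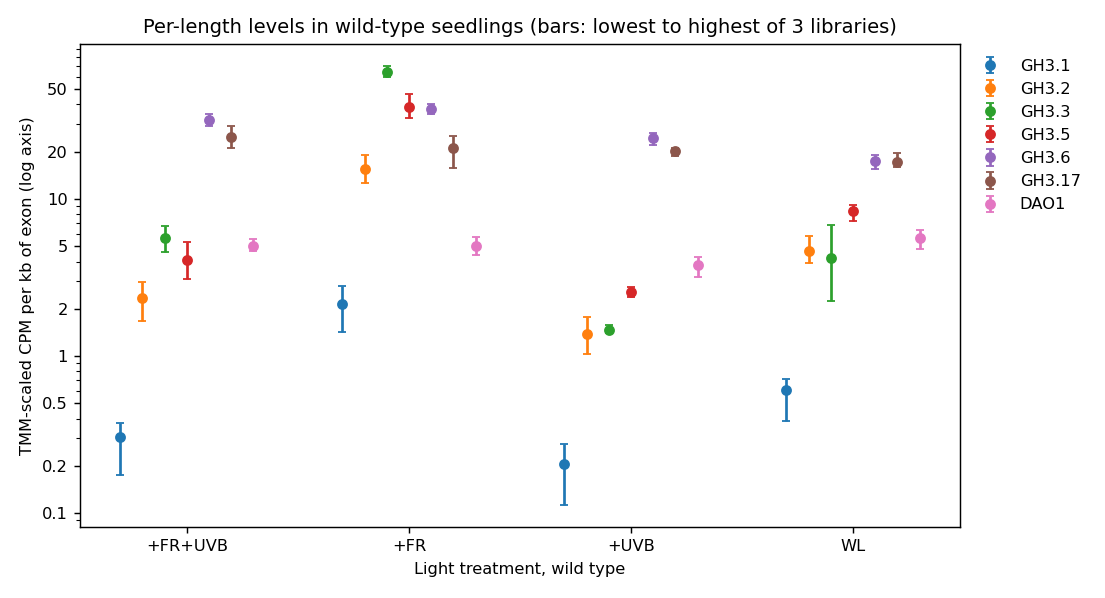
Mean TMM-scaled CPM per kb of exon (log axis) of the 7 measured genes in wild-type seedlings under each light treatment, with bars spanning the lowest to the highest of 3 libraries. GH3.3 stands at 63.9 under +FR and 1.47 under +UVB, while GH3.17 stays between 17.3 and 24.8 and DAO1 between 3.8 and 5.65.

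All CPM below are scaled with edgeR's TMM factors, and p-values come from edgeR's quasi-likelihood F-test with Benjamini-Hochberg adjustment over all 20926 genes. A gene is called when its fold change is over 2 and its adjusted p under 0.05. For a difference between 2 effects only the adjusted p counts.

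The first comparison asks which inactivation genes respond to simulated shade. In wild type +FR raised 5 of 7, all of them amino acid conjugating enzymes: *GH3.3* 15-fold, *GH3.5* 4.6-fold, *GH3.1* 3.55-fold, *GH3.2* 3.35-fold and *GH3.6* 2.13-fold. *GH3.17* and *DAO1* did not pass the test. Of all genes tested, 1.43% were called higher and 0.516% lower. The summed root markers, nearly all of it *PYK10*, were lower under +FR without overlap in each genotype, with 3420 to 3740 CPM under +FR, against 4450 to 4640 CPM in WL, in wild type, 1610 to 3100 against 3790 to 4440 CPM in *uvr8*, and 2780 to 3010 against 3960 to 4140 CPM in *hfr1*. The lower sums came from *PYK10* and not from the root genes as a set. Over the 3 root genes, the median log2 fold change was slightly above 0 for *hfr1* (0.02) and *uvr8* (0.05), and 0.47 for wild type. None of the 3 root genes was called in these comparisons, and their part in the results was not tested.

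*GH3.3* had 126, 131 and 149 CPM under +FR, against 4.75, 7.69 and 14.4 CPM in WL. Every +FR library was far above every WL library, and the WL libraries themselves were widely spread. The log2 fold change was 3.9 ± 0.44 (SE; adjusted p = 2.62e-07). *GH3.5*, which can also act on salicylic acid, had 85.3, 77.1 and 110 CPM under +FR, against 17.1, 21.5 and 20.5 CPM in WL (log2 2.20 ± 0.24, adjusted p = 1.64e-07). *GH3.2* had 33, 27.4 and 41.4 CPM under +FR, against 8.49, 9.07 and 12.7 CPM in WL (log2 1.74 ± 0.38, adjusted p = 0.00242). For both genes the groups were apart.

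*GH3.1* was the lowest of the measured genes, with 4.95, 6.29 and 3.2 CPM under +FR, against 1.58, 1.61 and 0.871 CPM in WL, where it had 25, 28 and 16 counts (log2 1.83 ± 0.36, adjusted p = 0.00104). *GH3.6* had 86.2, 93.3 and 80 CPM under +FR, against 36, 44.3 and 41.2 CPM in WL (log2 1.09 ± 0.16, adjusted p = 2.02e-05). It rose from a higher base and by the smallest of the 5 folds. *GH3.17*, an auxin-conjugating enzyme with a preference for glutamate, had 60.3, 68.8 and 43 CPM under +FR, against 53.9, 44.7 and 43.4 CPM in WL (log2 0.28 ± 0.14, adjusted p = 0.239). *DAO1* had 7.61, 8.98 and 6.87 CPM under +FR, against 9.83, 9.02 and 7.51 CPM in WL (log2 -0.17 ± 0.22, adjusted p = 0.732). The 95% interval of its change, -0.60 to 0.27, lies within the fold minimum in both directions, as does that of *GH3.17*, 0.00 to 0.56.

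**Figure D2:**
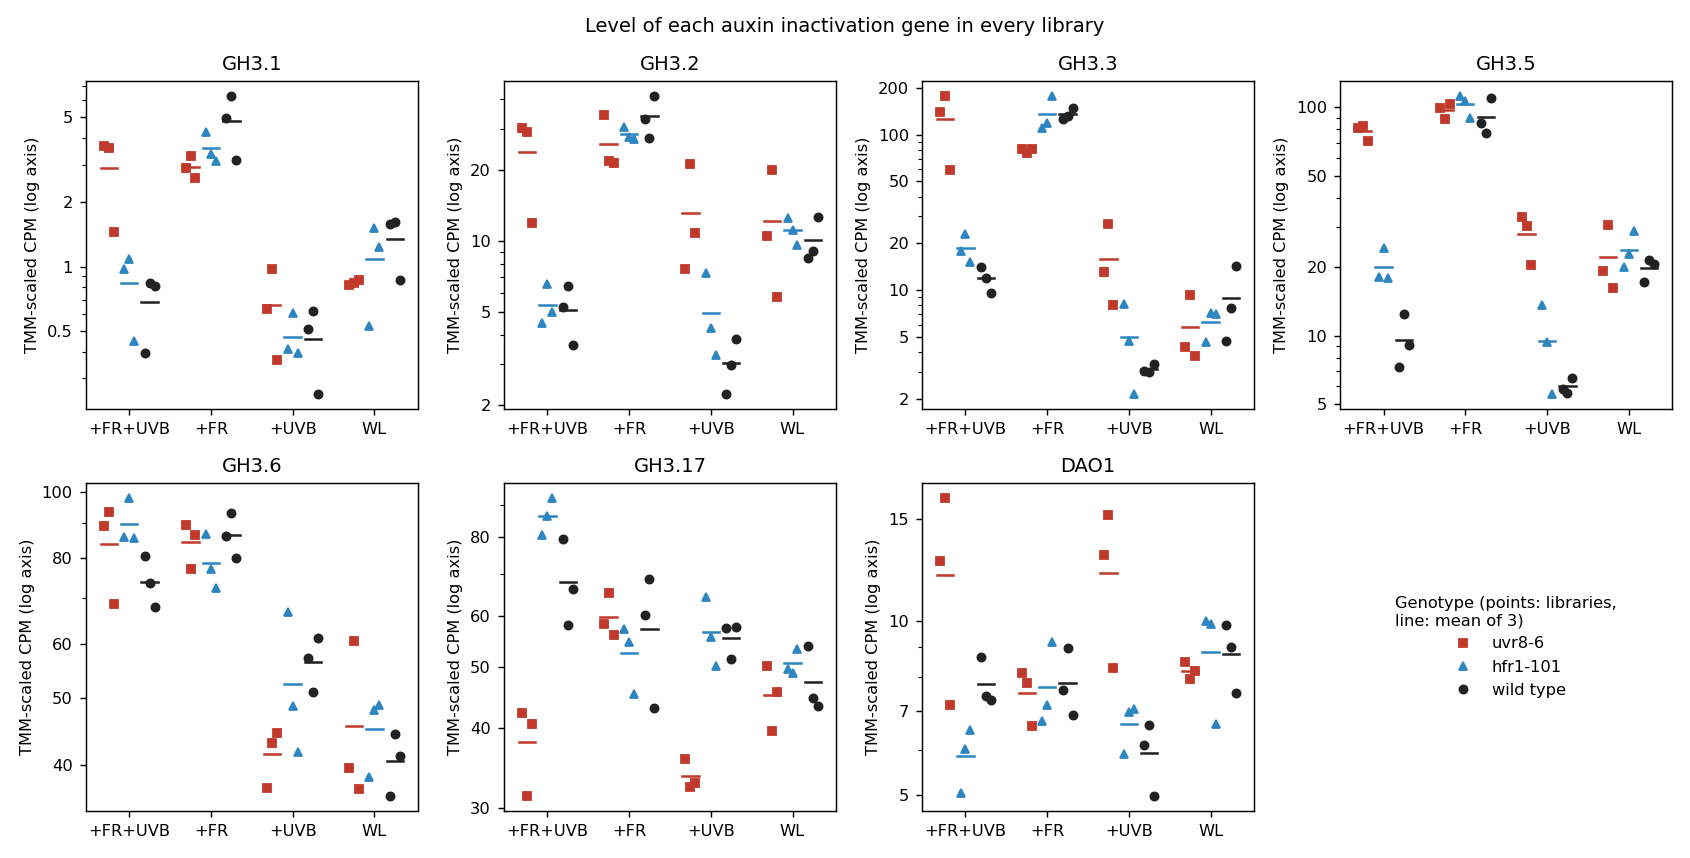
TMM-scaled CPM (log axis) of each measured gene in all 36 libraries, by light treatment and genotype. Points are libraries and lines the means of 3. GH3.1, GH3.2, GH3.3 and GH3.5 are high under +FR in every genotype and, under +FR+UVB, high only in uvr8-6, while GH3.17 is lowest and DAO1 highest on average in uvr8-6 under +UVB.

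UV-B alone lowered 4 of the 7 genes in wild type, against 6.79% of all genes called lower and 6.68% called higher. They were *GH3.2* (3.35-fold), *GH3.5* (3.29-fold), *GH3.1* (2.9-fold) and *GH3.3* (2.89-fold). Of the 3 green-tissue markers *LHCB1.1* was called lower too (2.01-fold, adjusted p = 3.35e-05), while *LHCB1.3* had a log2 fold change of -0.91 ± 0.17 and *RBCS1A* one of 0.26 ± 0.17. Their sum was 33200 to 35000 CPM under +UVB, against 36000 to 41500 CPM in WL, and its part in the results was not tested. *GH3.5* had 5.85, 5.63 and 6.51 CPM under +UVB, against 17.1, 21.5 and 20.5 CPM in WL (log2 -1.72 ± 0.26, adjusted p = 4.12e-06). *GH3.2* had 2.23, 2.97 and 3.85 CPM under +UVB, against 8.49, 9.07 and 12.7 CPM in WL (log2 -1.74 ± 0.44, adjusted p = 0.00149). *GH3.3* had 3.05, 2.97 and 3.35 CPM under +UVB, against 4.75, 7.69 and 14.4 CPM in WL (log2 -1.53 ± 0.49, adjusted p = 0.0116). The 3 genes shared this pattern of WL and +UVB groups that did not overlap, but the call of *GH3.3* rests on WL replicate 3, without which its log2 fold change is -0.99 and its adjusted p 0.133.

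*GH3.1* had 0.509, 0.619 and 0.253 CPM under +UVB, from 8, 10 and 4 counts, against 1.58, 1.61 and 0.871 CPM in WL (log2 -1.54 ± 0.45, adjusted p = 0.00585). The 3 other genes moved by less than the fold minimum. The change of *GH3.6* had the other sign, with 57.3, 51 and 61.3 CPM under +UVB, against 36, 44.3 and 41.2 CPM in WL (log2 0.48 ± 0.16, adjusted p = 0.0142). *DAO1* had 6.11, 6.62 and 4.99 CPM under +UVB, against 9.83, 9.02 and 7.51 CPM in WL (log2 -0.57 ± 0.23, adjusted p = 0.0383). *GH3.17* had 57.5, 51.4 and 57.8 CPM under +UVB, against 53.9, 44.7 and 43.4 CPM in WL (log2 0.23 ± 0.14, adjusted p = 0.182). In this comparison same-numbered libraries varied together, and with the replicate as a block in these 6 libraries the count of genes called was again 4.

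The comparison of +FR+UVB with +FR asks whether UV-B reverses the shade response. In wild type UV-B lowered the same 4 genes under low R:FR: *GH3.3* 11.3-fold, *GH3.5* 9.41-fold, *GH3.1* 6.89-fold and *GH3.2* 6.64-fold. Over all genes 8.53% were called lower and 8.27% higher. *GH3.3* had 14.2, 12 and 9.68 CPM under +FR+UVB, against 126, 131 and 149 CPM under +FR (log2 -3.50 ± 0.43, adjusted p = 7.84e-08). *GH3.5* had 7.27, 12.5 and 9.09 CPM under +FR+UVB, against 85.3, 77.1 and 110 CPM under +FR (log2 -3.23 ± 0.26, adjusted p = 1.76e-11). *GH3.2* had 5.24, 6.46 and 3.62 CPM under +FR+UVB, against 33, 27.4 and 41.4 CPM under +FR (log2 -2.73 ± 0.40, adjusted p = 1.6e-06). In these 3 genes every library with UV-B was below every library without it. The green-tissue markers summed to 37300 to 40100 CPM under +FR+UVB, against 31600 to 36400 CPM under +FR, with 0 of 3 called. All 3 still had an adjusted p under 0.05, with changes short of the fold minimum. Their median log2 fold change was -0.52, opposite in direction to the sum, and their part in the results was not tested.

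*GH3.1* followed with 0.393, 0.843 and 0.811 CPM under +FR+UVB, against 4.95, 6.29 and 3.2 CPM under +FR (log2 -2.78 ± 0.39, adjusted p = 8.55e-07). *GH3.6* did not pass, with 80.6, 73.7 and 67.9 CPM under +FR+UVB, against 86.2, 93.3 and 80 CPM under +FR. Its log2 fold change was -0.22 ± 0.16 (adjusted p = 0.234), with a 95% interval of -0.53 to 0.08. *GH3.17* (log2 0.24 ± 0.14, adjusted p = 0.146) and *DAO1* (log2 -0.01 ± 0.22, adjusted p = 0.979) did not pass either. *GH3.6* was thus raised by +FR like *GH3.5*, its nearest relative in coding sequence, but the interval of its change under added UV-B ends far from the fall of *GH3.5*.

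With UV-B present in both groups, +FR+UVB against +UVB raised 1 gene of 7 in wild type, *GH3.3*, against 0.401% of all genes called higher and 0.201% lower. *GH3.3* had 14.2, 12 and 9.68 CPM under +FR+UVB, against 3.05, 2.97 and 3.35 CPM under +UVB (log2 1.93 ± 0.49, adjusted p = 0.0244). The groups were apart, but leaving out any one of 5 libraries, all but +FR+UVB replicate 3, ended the call, with adjusted p up to 0.102. The remaining 6 genes had log2 fold changes between 0.29 and 0.76.

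**Figure D3:**
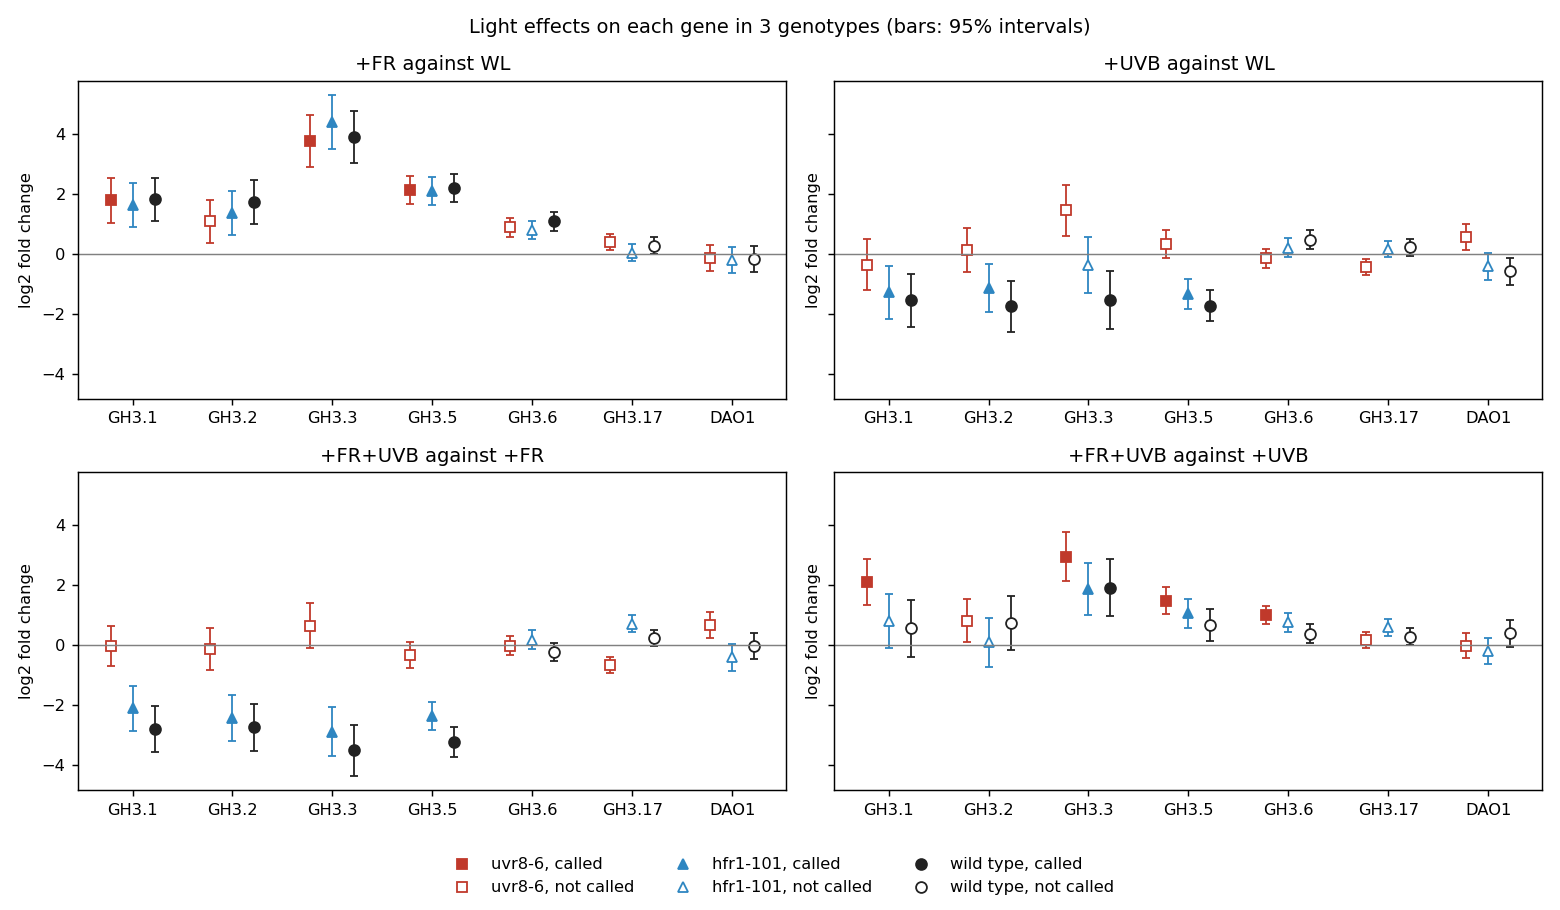
Log2 fold change of each measured gene in 4 light comparisons, with 95% intervals, for uvr8-6, hfr1-101 and wild type; filled symbols mark genes called. Under +FR+UVB against +FR, GH3.3 is at 0.66 in uvr8-6, -2.87 in hfr1-101 and -3.50 in wild type.

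The *uvr8* mutant shows what remains without the UV-B receptor. Its shade response was there: +FR raised *GH3.3* 13.6-fold, *GH3.5* 4.41-fold and *GH3.1* 3.45-fold, 3 genes of 7, against 1.49% of all genes called higher and 0.554% lower. *GH3.3* had 80.4, 75.6 and 80.7 CPM under +FR, against 4.33, 9.27 and 3.79 CPM in WL (log2 3.76 ± 0.44, adjusted p = 8.59e-07). *GH3.6* had a log2 fold change of 0.89 ± 0.16 (adjusted p = 0.00036), short of the fold minimum, and *GH3.2* one of 1.09 ± 0.37 (adjusted p = 0.069). WL replicate 2, the library with seed storage mRNA, was the highest of its group in *GH3.2* (20.1 CPM), *GH3.3*, *GH3.5* (30.5 CPM) and *GH3.6* (60.5 CPM). Without it 5 genes were called, *GH3.2* and *GH3.6* among them, and whether the seed material has a part in these levels was not tested. No difference between *uvr8* and wild type in the +FR effect was called among the 7 genes, nor in any of the genes tested (0%), and 0 of the 7 had an unadjusted p under 0.05.

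UV-B alone called 0 of the 7 genes in *uvr8*, against 1.03% of all genes in either direction. An unadjusted p under 0.05 was found for 3, *GH3.3*, *GH3.17* and *DAO1*. *GH3.17* was lower without overlap of the groups (log2 -0.43 ± 0.14, adjusted p = 0.107). *DAO1* was higher on average with overlap (log2 0.56 ± 0.22, adjusted p = 0.17). *GH3.3* had 13.2, 26.8 and 8.06 CPM under +UVB, against 4.33, 9.27 and 3.79 CPM in WL, groups that overlap (log2 1.47 ± 0.44, adjusted p = 0.065). DESeq2 and edgeR's likelihood ratio test each called 1 gene here, as did edgeR's quasi-likelihood test without WL replicate 2 or without +UVB replicate 3, and the gene was *GH3.3*, higher under +UVB. Added to low R:FR, UV-B again called 0 of 7, against 0.855% of all genes in either direction, with 2 at an unadjusted p under 0.05 and 0 called by DESeq2. *GH3.3* had 140, 176 and 59.1 CPM under +FR+UVB, against 80.4, 75.6 and 80.7 CPM under +FR (log2 0.66 ± 0.38, adjusted p = 0.415). Its +FR+UVB replicate 3 was the lowest of its group, as it was for *GH3.1*, *GH3.2*, *GH3.5*, *GH3.6* and *DAO1*, and it is the library low in root markers, whose part in these levels was not tested.

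*GH3.17* is the exception among the 7. In *uvr8* it had 42.3, 31.3 and 40.7 CPM under +FR+UVB, against 58.3, 65.3 and 56.1 CPM under +FR, with no overlap (log2 -0.65 ± 0.14, adjusted p = 0.0111), a change under the fold minimum. Comparing +FR+UVB with +UVB in *uvr8* called 4 genes higher, *GH3.3* (7.76-fold), *GH3.1* (4.33-fold), *GH3.5* (2.82-fold) and *GH3.6* (2.02-fold), against 1.1% of all genes called higher and 0.459% lower. *GH3.6* stood at the edge of the fold minimum and lost the call without +FR+UVB replicate 1 or 2 or +UVB replicate 1 and with the gene filter of filterByExpr, where its fold change no longer passed 2.

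Tested directly, the UV-B effect on WL seedlings differed between *uvr8* and wild type for 6 of the 7 genes, 4 upward and 2 downward in *uvr8*, against 13.5% and 16.3% of all genes. The differences of log2 fold changes were 3.00 ± 0.66 for *GH3.3* (adjusted p = 0.000978), 2.06 ± 0.35 for *GH3.5* (6.32e-05), 1.88 ± 0.58 for *GH3.2* (0.0143) and 1.13 ± 0.31 for *DAO1* (0.00724). They were -0.66 ± 0.20 for *GH3.17* (0.0142) and -0.61 ± 0.23 for *GH3.6* (0.0403). *GH3.1* did not pass (1.19 ± 0.63, adjusted p = 0.161). The call of *GH3.2* was lost without *uvr8* +UVB replicate 2 (adjusted p = 0.0788), and that of *GH3.17* without TMM factors (adjusted p = 0.117). The call of *GH3.6* was lost under 8 of 20 alternatives, 7 of them single libraries left out (*uvr8* WL replicate 2, *uvr8* +UVB replicates 1 and 2, and wild-type WL and +UVB replicates 1 and 3), with adjusted p up to 0.228.

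Under low R:FR the UV-B effect differed for 5 of the 7, *GH3.1*, *GH3.2*, *GH3.3* and *GH3.5* upward and *GH3.17* downward, against 16.4% of all genes upward and 17% downward. The difference was 4.16 ± 0.57 for *GH3.3* (adjusted p = 1.45e-06), 2.92 ± 0.34 for *GH3.5* (8.05e-08), 2.76 ± 0.52 for *GH3.1* (0.000149), 2.61 ± 0.53 for *GH3.2* (0.00037) and -0.89 ± 0.20 for *GH3.17* (0.000873). These 5 calls held without either library low in root markers. *DAO1* had a difference of 0.69 ± 0.31 (adjusted p = 0.092) and *GH3.6* of 0.22 ± 0.22 (adjusted p = 0.496).

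**Figure D4:**
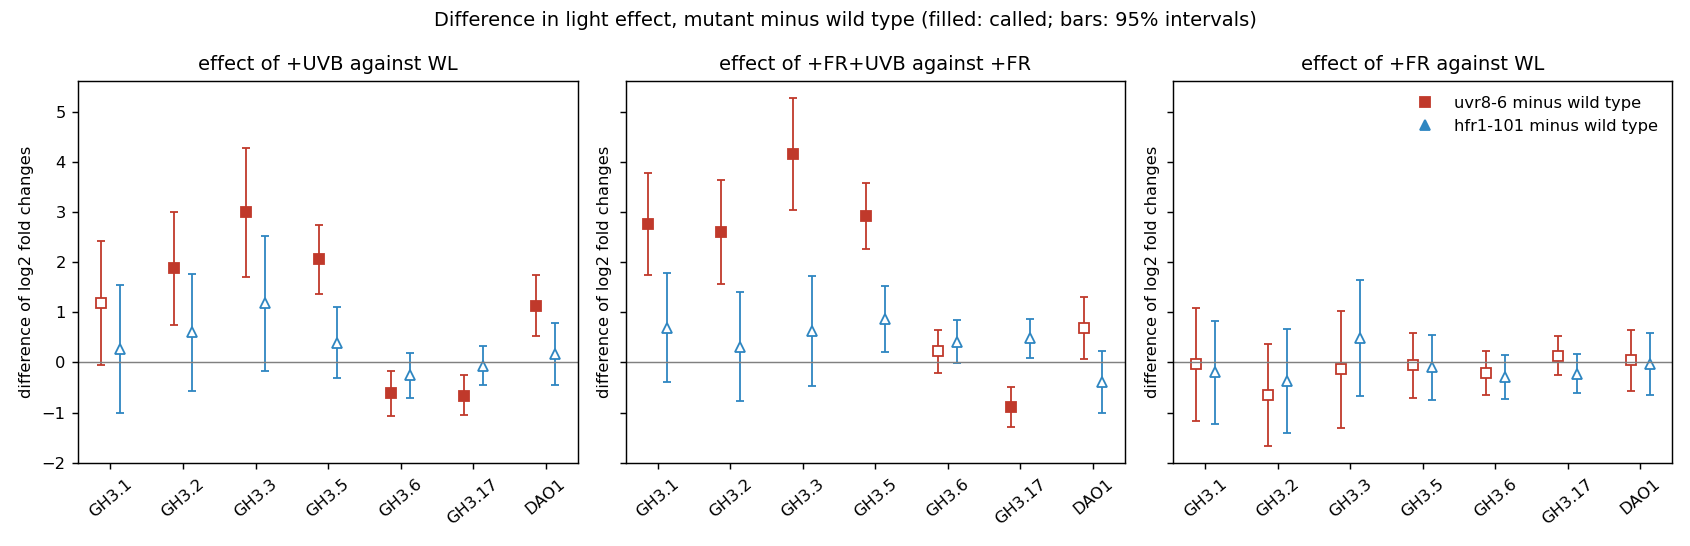
Difference of log2 fold changes, mutant minus wild type, for 3 light effects, with 95% intervals; red squares are uvr8-6, blue triangles hfr1-101, and filled symbols are called. GH3.3 reaches 4.16 in uvr8-6 for UV-B added to low R:FR, GH3.17 lies at -0.89 there, and no hfr1-101 symbol is filled.

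Set against wild type within one light condition, calls between *uvr8* and wild type came in the 2 conditions with UV-B. In WL 0 of 7 genes were called (0.105% of all genes in either direction; 0 at an unadjusted p under 0.05; 0 by DESeq2), and under +FR 0 of 7 (0.124%; 1 at an unadjusted p under 0.05; 0 by DESeq2). The +FR groups of *GH3.3* still did not overlap, with 80.4, 75.6 and 80.7 CPM in *uvr8*, against 126, 131 and 149 CPM in wild type. Under +UVB 4 were higher in *uvr8*, against 7.08% of all genes higher and 5.91% lower. *GH3.3* had 13.2, 26.8 and 8.06 CPM in *uvr8*, against 3.05, 2.97 and 3.35 CPM in wild type (log2 2.36 ± 0.48, adjusted p = 0.000183), and *GH3.5* and *GH3.2* differed by 2.21 ± 0.26 and 2.14 ± 0.43. Under +FR+UVB 4 were higher in *uvr8*, *GH3.3* (10.5-fold), *GH3.5* (8.12-fold), *GH3.2* (4.65-fold) and *GH3.1* (4.14-fold), against 6.4% of all genes higher and 6.04% lower.

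Summed root markers, nearly all of it *PYK10*, were lower in *uvr8* in every light condition, with or without UV-B. Under +UVB they were at 2900 to 3410 CPM in *uvr8*, against 3630 to 4620 CPM in wild type. With +FR+UVB the sums were 1630 to 2890 CPM in *uvr8*, against 3020 to 3580 CPM in wild type. In WL they were 3790 to 4440 CPM against 4450 to 4640 CPM, and under +FR 1610 to 3100 CPM against 3420 to 3740 CPM. None of the 3 root genes was called, and their part in the results was not tested.

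*DAO1* was also among the genes called higher in *uvr8* under +UVB, while *GH3.17* was lower in *uvr8* in both conditions with UV-B. *GH3.6* was lower in *uvr8* under +UVB, by less than the fold minimum (log2 -0.44, adjusted p = 0.0228, up to 0.356 under the alternatives). It had 37, 43 and 44.5 CPM in *uvr8*, against 57.3, 51 and 61.3 CPM in wild type. *DAO1* had 13, 15.2 and 8.29 CPM in *uvr8* under +UVB, against 6.11, 6.62 and 4.99 CPM in wild type (log2 1.04 ± 0.22, adjusted p = 0.000369). The groups did not overlap, and the fold change of 2.05 was close to the minimum, which it missed without *uvr8* +UVB replicate 1 or 2 or wild-type +UVB replicate 3. Under +FR+UVB *DAO1* had 12.7, 16.3 and 7.17 CPM in *uvr8*, against 8.65, 7.42 and 7.3 CPM in wild type, and the groups overlapped through the *uvr8* library low in root markers (log2 0.63 ± 0.22, adjusted p = 0.0199). *GH3.17* had 35.8, 32.3 and 32.8 CPM in *uvr8* under +UVB, against 57.5, 51.4 and 57.8 CPM in wild type (log2 -0.72 ± 0.14, adjusted p = 0.000127). Under +FR+UVB it had 42.3, 31.3 and 40.7 CPM in *uvr8*, against 79.5, 58.1 and 66.3 CPM in wild type (log2 -0.83 ± 0.14, adjusted p = 1.92e-05). Both differences of *GH3.17* are wider than the replicate spread and narrower than the fold minimum.

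The *hfr1* mutant asks whether HFR1 is needed for the UV-B effect. +FR raised 4 of 7 genes in *hfr1*, *GH3.3* (21.1-fold), *GH3.5* (4.28-fold), *GH3.1* (3.1-fold) and *GH3.2* (2.59-fold), against 1.66% of all genes called higher and 1.14% lower. The call of *GH3.2* was lost without *hfr1* WL replicate 2 or 3, with adjusted p up to 0.0704. *GH3.6* had a log2 fold change of 0.8 ± 0.16 (adjusted p = 0.000925), short of the fold minimum. *GH3.3* had 111, 119 and 177 CPM under +FR, against 4.64, 7.16 and 7.09 CPM in WL (log2 4.40 ± 0.46, adjusted p = 7.41e-08). UV-B added to low R:FR lowered the same 4 genes as in wild type, *GH3.3* 7.3-fold, *GH3.2* 5.34-fold, *GH3.5* 5.13-fold and *GH3.1* 4.27-fold, against 6.66% of all genes called lower and 6.61% higher. *GH3.3* had 17.9, 22.9 and 15.1 CPM under +FR+UVB, against 111, 119 and 177 CPM under +FR, so that the groups were far apart (log2 -2.87 ± 0.41, adjusted p = 1.45e-06).

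*GH3.17* was higher in this comparison, by less than the fold minimum, with 80.7, 86.3 and 92.3 CPM under +FR+UVB, against 57.4, 54.7 and 45.3 CPM under +FR (log2 0.72 ± 0.14, adjusted p = 0.000101). This was its highest group of the 12, and the next, wild type under +FR+UVB at 68 ± 10.8 CPM, did not overlap with it. UV-B alone lowered 3 of 7 genes in *hfr1*, against 6.83% of all genes called lower and 7.96% higher: *GH3.5* (log2 -1.33 ± 0.25, adjusted p = 7.09e-05), *GH3.1* (-1.27 ± 0.45, 0.0196) and *GH3.2* (-1.14 ± 0.41, 0.0212). *GH3.5* had 13.6, 9.39 and 5.54 CPM under +UVB, against 20, 22.8 and 28.8 CPM in WL. The groups of *GH3.1* overlapped, with up to 0.609 CPM under +UVB and down to 0.528 CPM in WL. Without +UVB replicate 3, the lowest of its group in every measured GH3 gene, 1 gene was called, *GH3.5*. The library low in green-tissue markers, +UVB replicate 1, was the highest of its group in *GH3.2* (7.33 CPM), *GH3.3* (8.15 CPM), *GH3.5*, *GH3.6* (66.9 CPM) and *GH3.17* (64.4 CPM). Without it 2 genes were called, *GH3.5* (log2 -1.67) and *GH3.2* (-1.53). Of the 3 green-tissue markers 2 were called lower here, *LHCB1.3* (-1.09 ± 0.17) and *LHCB1.1* (-1.07 ± 0.18), whose part in the results was not tested. The call of *GH3.1* was also lost without +UVB replicate 1 or WL replicate 2 or 3, and that of *GH3.2* without +UVB replicate 2 or WL replicate 1. Comparing +FR+UVB with +UVB called *GH3.3* (log2 1.88 ± 0.44, adjusted p = 0.00814) and *GH3.5* (1.07 ± 0.25, adjusted p = 0.00751), 2 of 7, against 0.87% of all genes called higher and 0.602% lower. *GH3.5* lost the call without +FR+UVB replicate 2 or +UVB replicate 3, which left 1 gene. *GH3.6* (0.78 ± 0.16, adjusted p = 0.00227) and *GH3.17* (0.61 ± 0.14, adjusted p = 0.00681) were short of the fold minimum.

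No difference between *hfr1* and wild type in a light effect was called for the 7 genes. For the +FR effect and the UV-B effect in WL this was so for all genes tested (0%), with 0 of the 7 at an unadjusted p under 0.05. For the UV-B effect under low R:FR 0.0669% of all genes were called in either direction, with 2 of the 7 at an unadjusted p under 0.05, and DESeq2 called 0 of the 7 in each of these 3 effects. In this last comparison the differences were 0.87 for *GH3.5* (95% interval 0.21 to 1.53), 0.63 for *GH3.3* (-0.47 to 1.73) and 0.48 for *GH3.17* (0.09 to 0.87). These intervals do not show that the genotypes respond alike. Within a light condition 0 of 7 genes differed between *hfr1* and wild type in WL (0.0908% of all genes in either direction; 0 at an unadjusted p under 0.05), under +FR (0.086%; 0) and under +UVB (0.0717%; 1), and DESeq2 called 0 in each.

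Under +FR+UVB 1 of 7 differed, *GH3.5*, against 0.473% of all genes called higher and 0.239% lower. It had 18, 24.3 and 17.8 CPM in *hfr1*, against 7.27, 12.5 and 9.09 CPM in wild type (log2 1.05 ± 0.25, adjusted p = 0.0191). The groups did not overlap, and the call was lost without wild-type replicate 1 or 3 or *hfr1* replicate 2, with adjusted p up to 0.134.

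Whether UV-B acted by the same factor in low R:FR and in WL was tested as the difference of its 2 effects. In wild type the effect on *GH3.5* was stronger under low R:FR by -1.52 ± 0.36 on the log2 scale (adjusted p = 0.0297), 1 gene of 7, against 0.903% of all genes below and 0.268% above 0. In *hfr1* it was *GH3.3*, by -2.51 ± 0.62 (adjusted p = 0.0417), 1 of 7, against 0.387% of all genes lower and 0.54% higher. Both calls were fragile: the first was lost in 7 of the 12 fits that left out 1 wild-type library (WL 1, +FR 3, +FR+UVB 1 and 3 and all of +UVB), and the second in all but 1 of those that left out 1 *hfr1* library, the exception being +UVB replicate 3. In *uvr8* 0 of 7 were called (0% of all genes; 0 at an unadjusted p under 0.05; 0 by DESeq2).

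Over the 12 groups *GH3.3* fell into a high block, *hfr1* and wild type under +FR (136 and 135 CPM) and *uvr8* under +FR+UVB and +FR (125 and 78.9 CPM), and a low block of the other 8 groups, whose means ran from 18.6 down to 3.1 CPM. These blocks did not overlap, and every neighbouring pair of groups within them did. *GH3.5* showed the same 4 groups on top (103 to 78.3 CPM), apart from the rest. *DAO1* was highest in *uvr8* under +UVB (12.1 CPM) and +FR+UVB (12 CPM) and every pair of neighbours overlapped. As a description over these 12 group means on the log2 scale, which share libraries and depth, *GH3.2* correlated with *GH3.5* at r = 0.97 and *GH3.3* with *GH3.5* at 0.92, while *GH3.17* correlated with *DAO1* at -0.85.

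Among 16153 other genes with a group mean of at least 5 CPM, those whose 12 group means were most like *GH3.3* were *CPK28*, a calcium-dependent protein kinase (r = 0.987), AT5G45720 (0.982) and *YUC8*, an enzyme of auxin synthesis (0.981). By Spearman's rho *YUC8* ranked 3 as well, and AT5G45720 ranked 35. Those most like *GH3.17* were *KAC2* (0.948), a kinesin of chloroplast movement, AT5G66650 (0.94) and AT5G12400 (0.921). Those most like *DAO1* were *CRK3* (0.977), a receptor-like kinase, *NAC3* (0.934) and AT5G07870 (0.927). Several of these neighbours depended on the measure. By Spearman's rho *KAC2* ranked 159, AT5G66650 18 and AT5G12400 1 for *GH3.17*. For *DAO1* the ranks were 4 for *CRK3*, 38 for *NAC3* and 483 for AT5G07870.

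The other genes of the pathway were counted in the same way, and by +FR in wild type 1.43% of all genes were called higher and 0.516% lower. Of 12 tested in the list of other auxin inactivation and release genes, 1 was called higher and 0 lower by +FR in wild type, with a median log2 fold change of 0.13, against 1.74 for the 7 genes above and 0.01 for all genes. It was *IAMT1*, which methylates auxin (log2 1.14 ± 0.27, adjusted p = 0.00502). Of 9 tested auxin synthesis genes 3 rose, *YUC8* (3.00 ± 0.24), *YUC9* (2.62 ± 0.36) and *YUC2* (2.07 ± 0.23), and *TAA1*, which supplies the YUCCA enzymes with their substrate, fell (-1.38 ± 0.17), with a median of 0.32. Of 9 other GH3 genes 1 fell, *GH3.19*, at under 1 CPM. The 6 auxin response factors listed had log2 fold changes between -0.26 and 0.28.

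Under +FR+UVB against +FR in wild type, 8.53% of all genes were called lower and 8.27% higher. Of the 9 synthesis genes the same 3 YUCCA genes fell: *YUC9* (-2.77 ± 0.36), *YUC8* (-2.42 ± 0.23) and *YUC2* (-1.76 ± 0.22). *YUC8* had 6.29, 5.79 and 7.3 CPM under +FR+UVB, against 33.9, 33.4 and 36.2 CPM under +FR. In the list of other inactivation and release genes 3 fell, *ILL6* (-2.36 ± 0.24) and *ILR1* (-1.50 ± 0.19), both of the family that releases auxin from amino acid conjugates, and *IAMT1* (-1.42 ± 0.27). *UGT74D1*, a glucosyltransferase that can act on auxin, rose (1.83 ± 0.09), with 239 ± 18 CPM under +FR+UVB, against 67.2 ± 6.37 CPM under +FR. Among the other GH3 genes *GH3.14* (1.72 ± 0.09) and *GH3.15* (1.33 ± 0.14) rose and *GH3.7*, at under 1 CPM, fell (-3.13 ± 0.90). Of the 6 response factors 1 fell, *ARF19* (-1.03 ± 0.11). The median of the 12 other inactivation and release genes was -0.48, against -2.73 for the 7 genes above and -0.04 for all genes.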

How the data were processed

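The authors checked reads with FastQC 0.10.2, mapped them to TAIR10 with TopHat2 2.0.13, counted them on genes with HTSeq 0.6.1 and normalized with edgeR 3.4.2. They deposited raw counts for 33602 genes and a normalized signal for the 20926 genes that passed their filter. The strand setting of the counting was not given in the sources used here. The deposited signal equals the counts scaled by TMM factors within 0.0283%, and served as the gene filter and as this check.

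Counts were fitted in R 4.3.3 with edgeR 4.0.16 (legacy quasi-likelihood F-test, 1 coefficient for each of 12 groups, all 36 libraries, no covariate), and DESeq2 1.42.0 was an alternative, beside the likelihood ratio test, the current quasi-likelihood method, library size without TMM, other filters (26408 genes with a count, or 20867 kept by filterByExpr), only the genotypes compared, the replicate as a block, other fold minimums and leaving out each library. Errors of log2 fold changes are the change divided by the square root of F, and intervals are at 95%. The fits were tested on simulated data. Depth was 9749710 to 21175260 counts per library, and floors of 3 counts cover counting error only. Gene models, sequences and alignments came from RefSeq with Biopython 1.88 in Python 3.11.15.

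Libraries of a group came from separate plates. Same-numbered libraries varied together (correlation of their deviations from the group means over 0.1 in all 3 pairs) in wild type between +UVB and WL alone, at 0.231, 0.288 and 0.403, and the block on these 6 libraries was added after the data were seen. The genes, lists and tests were chosen with earlier results of these data known. Of the 8 genes, all that were measured were tested in every comparison, but not all of them are named in each. The counts of genes called include those not named. From the other lists genes are named when called in wild type by +FR or by +FR+UVB against +FR, up to 3 a list and direction. Likeness used log2(CPM + 0.5).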

Additional observations from a re-analysis of the deposited data

Results flagged for a closer look

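The effect of UV-B on white-light seedlings differed between *uvr8* and wild type, by a direct test of the difference on the log2 scale, for *GH3.3* (3.00), *GH3.5* (2.06), *GH3.2* (1.88), *DAO1* (1.13), *GH3.17* (-0.66) and *GH3.6* (-0.61). The effect of UV-B added to low R:FR differed for *GH3.3* (4.16), *GH3.5* (2.92), *GH3.1* (2.76), *GH3.2* (2.61) and *GH3.17* (-0.89). The 2 genes with opposite signs to the rest in white light had a higher, not lower, wild-type mean under UV-B. The wild-type effect is subtracted in each difference, so this match is partly built in. For *GH3.17* the wild-type groups overlapped (log2 0.23, adjusted p = 0.182), and its log2 fold change in *uvr8* was -0.43.

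The effect of UV-B also differed between low R:FR and white light within a genotype, for *GH3.5* in wild type (-1.52) and for *GH3.3* in *hfr1* (-2.51).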

How the results depend on the processing

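No call reversed under any alternative. Of the 135 pairs of gene and comparison with an adjusted p of 0.05 or more, 6 were called under some alternative, 0 with the opposite sign. With the replicate as a block 4 genes were called for +FR against WL in *uvr8*, against 3 without it, and no other count moved. For UV-B in white light in wild type it was 4 with the block, in the paired fit to those 6 libraries and without. For UV-B alone in *uvr8*, 1 gene was called by the likelihood ratio test and 1 by DESeq2, against 0. For UV-B added to low R:FR in *uvr8*, 1 was called with no fold minimum or a minimum of 1.5. For +FR+UVB against +UVB in *hfr1*, 4 were called with no minimum or a minimum of 1.5, and 1 on library size without TMM factors. For the difference between the UV-B effects in low R:FR and WL, a fit to the libraries of that genotype alone called 3 genes in wild type and 0 in *hfr1*. The cause was not tested.

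Leaving out 1 library at a time, the counts ran from 0 to 1 for +FR+UVB against +UVB in wild type, 3 to 5 for +FR in *uvr8*, 0 to 1 for UV-B alone in *uvr8*, 1 to 2 for UV-B alone in *hfr1* and 1 to 2 for +FR+UVB against +UVB in *hfr1*. They ran from 0 to 1 for *hfr1* against wild type under +FR+UVB, 0 to 1 for the difference of UV-B effects in wild type and 0 to 2 for that in *hfr1*.

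With 3 libraries a group, some calls ended when 1 library was left out, near the fold minimum (*GH3.6*, *DAO1* and *GH3.5* in *hfr1*), further past it (*GH3.3* in wild type, *GH3.1* and *GH3.2* in *hfr1*) and among the differences of effects (*GH3.2*, *GH3.3*, *GH3.5* and *GH3.6*). *GH3.1* rests on few counts, down to 4 in a library. *GH3.4* was not detectable at this depth. Levels of mRNA say nothing of enzyme or auxin amounts, and whole seedlings average over organs.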
